A study of Mus musculus with 5 samples.

Results

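The chemokine system comprised 55 genes on the array, read by 60 of its 28853 probe sets, and was compared between control and Pdx1cKO pancreata at postnatal day 1. Members were the probe sets whose platform annotation gives 1 symbol of the form Ccl, Cxcl, Ccr, Cxcr or Ackr with a number, or Xcl1, Xcr1, Cx3cl1 or Cx3cr1. They were 34 ligands and 21 receptors among the 19938 genes measured. Another 7 probe sets carry several symbols, among them family names, and were not used. Chemokines are small secreted proteins that guide migrating cells along gradients, and nearly all act through receptors coupled to inhibitory G proteins. Some are made constantly and place cells within tissues, as Cxcl12 does through its receptor Cxcr4 and Ccl19 and Cxcl13 do in lymphoid organs, while others are induced by inflammation. In the pancreas Cxcr4 is also of interest as a receptor for the trefoil peptide TFF2, which the study examined as a signal from exocrine to endocrine cells.
In Pdx1cKO mice, Elastase-Cre inactivates floxed Pdx1 (Elastase-Cre;Pdx1loxP/loxP). The driver acts in exocrine cells, so endocrine cells keep the gene. Controls are labelled only as not recombined, and no source used here gives their alleles. Each of the 2 control and 3 Pdx1cKO samples, of whole-pancreas RNA, was read on its own Mouse Gene 1.0 ST array. The deposited values are linear intensities, normalized by the authors, and fold changes were computed on log2 intensity with limma. Arrays have no read depth, and their small number limits the precision.
The arrays differed in tissue makeup. The 6 measured acinar markers summed to 30470 to 49900 in control pancreata and 4692 to 8824 in the Pdx1cKO mice, and the 7 islet markers to 7602 to 8241 and 3888 to 4964, so the labelled tissue was present in all 5 arrays. Liver markers summed to 6208 to 7618 in control pancreata against 18770 to 47010 in Pdx1cKO. Stomach markers reached 16670 in control 2 against 532.6 to 1021 in the other 4 arrays, and several of the differences below are also given without it. In bulk RNA, fewer cells of a type and less RNA per cell cannot be told apart. Intensities cannot be compared between genes, and with no detection calls the level that counts as background is unknown.
Of the 55 genes, 29 had a log2 fold change within 0.1 of 0, or 52.7%, against 59.1% of all genes. By level, 28 of the 42 members at or below the median gene did so, against 1 of the 13 above it. The share of all genes was not computed by level. Over the 55 members the median log2 fold change was 0.05, against -0.0012 over all genes. Every Pdx1cKO value lay above both control values in 11 of 55 members, where 12.0% of all genes did so. Every Pdx1cKO value lay below both controls in 6 members, or 10.9%, where 11.7% of all genes did so. The 11 higher members were the ligands Ccl19, Cxcl13, Cxcl12, Ccl5, Cxcl9, Ccl22 and Ccl3 and the receptors Cxcr2, Cxcr4, Ccr9 and Cx3cr1. The 6 lower members were Ccl6, Ccl11, Ccl26, Ccl1, Cxcl11 and Cxcr1. With quantile normalization in place of the deposited scale, these counts were 22 higher and 4 lower, against 19.3% and 19.1% of all genes. Ties in the deposited values bear on such counts: 38 of 55 members, or 69.1%, had at least 1 exact tie among the 5 arrays, against 66.0% of all genes, and Cxcl5, Ccr4 and Ackr2 had the same value on all 5. For Ccl3, Ccl26 and Cxcl11 the gap between the groups was at most 0.0021 on the log2 scale.
By limma, 0 members passed an adjusted p of 0.05 in either direction, as did 0% of all 19938 genes. At an unadjusted p under 0.05, 7 members were higher (5.29% of all genes were) and 2 were lower (5.04%). The methods' t-test, adjusted in the same way, called 0 members, where it called 0.015% of all genes higher and 0.0351% lower. Without adjustment it gave 6 members higher (3.68% of all genes) and 1 lower (4.05%). With 2 mice against 3 there are 10 ways to divide the labels, so an exact permutation test cannot give a one-sided p below 0.1. The differences below are therefore described by their values, intervals and overlap.

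**Figure D1:**
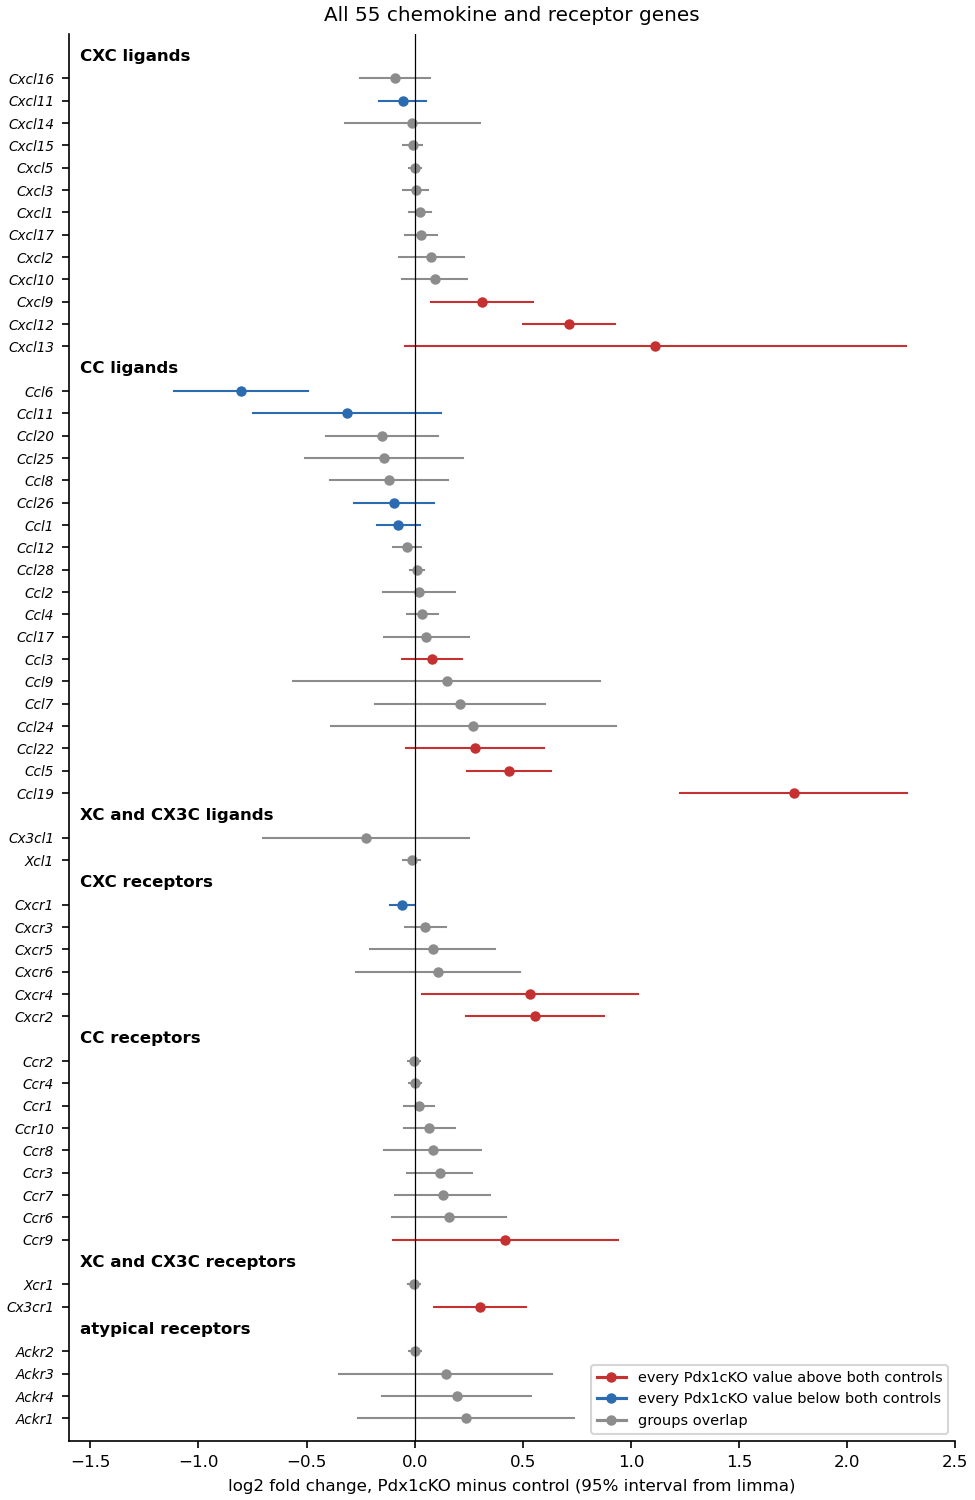
Log2 fold change of each of the 55 genes, Pdx1cKO minus control (points), with the 95% interval from limma (lines), by structural class; red, every Pdx1cKO value above both controls, blue, every Pdx1cKO value below both, grey, groups that overlap. Ccl19 lies farthest right at 1.75 and Ccl6 farthest left at -0.80, and 29 of the 55 lie within 0.1 of 0.

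The receptor and ligand of the CXCR4 axis were both higher in Pdx1cKO pancreata while Tff2 was much lower. Cxcl12, which encodes the stromal ligand that retains and attracts Cxcr4-bearing cells, had intensities of 78.7 and 90.1 in control pancreata against 142, 133 and 138 in Pdx1cKO mice 1, 2 and 3. The groups did not overlap and the Pdx1cKO mice lay close together. The fold change was 1.64 (log2 0.71, 95% interval 0.50 to 0.92, limma adjusted p = 0.183). Without control 1 the log2 difference was 0.61 and without control 2 it was 0.81, and in each case Cxcl12 passed (limma adjusted p = 0.0246 and 0.0158), a fit in which the single control takes its spread from the Pdx1cKO mice.
Cxcr4 had intensities of 87.7 and 73.4 in control pancreata against 139, 106 and 106 in the Pdx1cKO mice. All Pdx1cKO values lay above both controls, mouse 1 was the highest, and the deposited values of mice 2 and 3 were identical. The fold change was 1.44 (log2 0.53, 95% interval 0.03 to 1.03, limma adjusted p = 0.455). Over the left-out samples the log2 difference ran from 0.40 to 0.66, with no adjusted p under 0.05. Its value was 0.66 without control 1 and 0.40 without control 2.
Ackr3, an atypical receptor that scavenges Cxcl12 without signalling through G proteins, gave 119 and 84.8 in control pancreata against 106, 111 and 116 in Pdx1cKO. All 3 Pdx1cKO values fell between the controls. The log2 fold change of 0.14 had a 95% interval of -0.35 to 0.63 (limma adjusted p = 0.674), and it was -0.10 without control 2 and 0.39 without control 1.
Tff2, the trefoil ligand, was at 2649 and 2897 in control pancreata against 101, 116 and 171 (log2 difference -4.46, limma adjusted p = 0.147), the opposite direction to its receptor. Dropping control 1 gave a limma adjusted p of 0.0293 and dropping control 2 one of 0.0323. Cd74, which partners Cxcr4 in sensing the cytokine Mif and is also the invariant chain of antigen-presenting cells, was at 150 and 73.2 in control pancreata against 255, 230 and 237 in Pdx1cKO (log2 difference 1.20, limma adjusted p = 0.406). Mif itself overlapped, at 819 and 684 against 883, 927 and 718. Cd74 and Mif were chosen after their values were seen.
By immunostaining of embryonic pancreas, the paper reported CXCR4 protein only in insulin-positive cells, in both genotypes. The values here are whole-pancreas RNA at postnatal day 1, so measure and age differ from that staining. Cxcr4 is in general carried by several kinds of cell, whose markers were read beside it. The insulin transcript Ins2 was at 701 and 714 in control pancreata against 522, 539 and 455 in Pdx1cKO, so this islet marker was lower where Cxcr4 was higher. Of 10 lymphocyte markers 6 lay above both controls and 0 below, with sums of 426.4 to 438.1 in control pancreata against 585.4 to 643.7 in Pdx1cKO, among them Ptprc, the pan-leukocyte antigen, at 46.3 and 60.4 against 76.9, 74.6 and 92.8. Of 10 endothelial markers 6 lay above both controls, with sums of 2317 to 3137 and 3288 to 3857. Of 10 mesenchymal markers 4 did, with sums of 19980 to 23990 and 24540 to 27910. All 12 granulocyte markers did, with sums of 556.3 to 561.5 and 1582 to 4027. For liver, 9 of 10 markers did, with sums of 6208 to 7618 and 18770 to 47010, and for macrophages 1 of 10 did. Over all genes, 12.0% lay above both controls and 11.7% below, the shares to set beside the list counts here and below. On this array no marker is at 0. The part of any of these cells or tissues in the higher Cxcr4 and Cxcl12 was not tested.

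**Figure D2:**
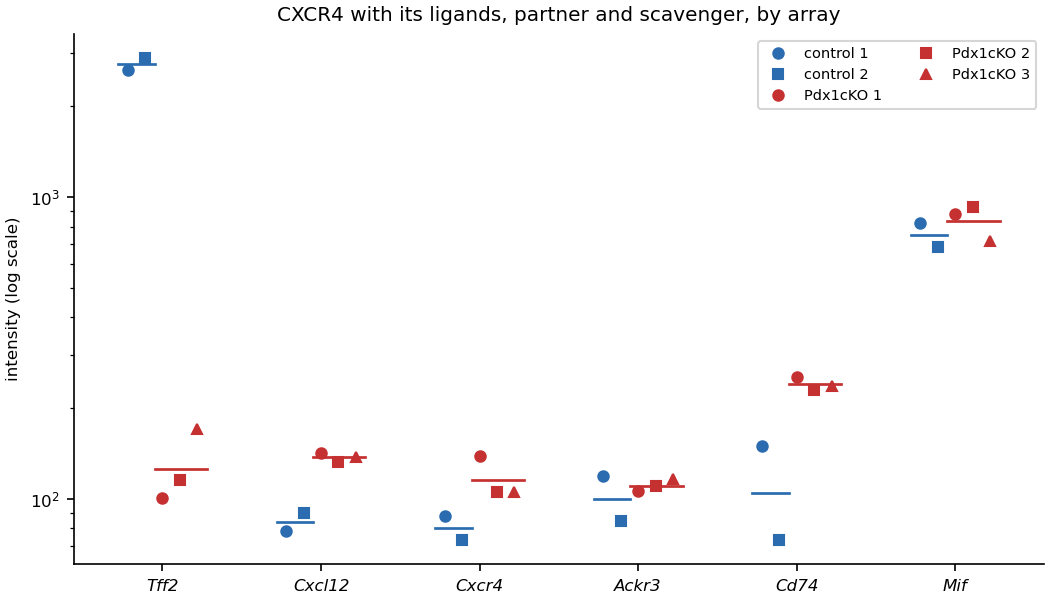
Intensity on a log scale of Tff2, Cxcl12, Cxcr4, Ackr3, Cd74 and Mif on each of the 5 arrays (controls in blue and Pdx1cKO in red, with a symbol for each replicate and lines at geometric means). Cxcl12 lies at 133 to 142 in the 3 Pdx1cKO mice and at 78.7 and 90.1 in the controls, Cxcr4 shows a smaller gap, Ackr3 overlaps, and Tff2 lies far lower in Pdx1cKO.

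The promoters of this ligand and receptor are shown because both members were higher together. The sequences are the 250 bases before the annotated transcription start in RefSeq (GRCm38.p6), written 5′ to 3′ on the gene's strand. Capitals mark 4 motifs searched on both strands: the GC box GGGCGG, the TATA box TATAAA, the NF-kappaB site GGAATTTCC and the paired interferon element GAAANNGAA.
Cxcl12 (chr6:117168285-117168534, plus strand): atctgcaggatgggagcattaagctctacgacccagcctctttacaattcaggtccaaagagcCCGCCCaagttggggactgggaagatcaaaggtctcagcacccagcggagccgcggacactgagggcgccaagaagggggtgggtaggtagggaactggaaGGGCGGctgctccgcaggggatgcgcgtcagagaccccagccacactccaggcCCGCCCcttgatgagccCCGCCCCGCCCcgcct
Cxcr4 (chr1:128592300-128592549, minus strand): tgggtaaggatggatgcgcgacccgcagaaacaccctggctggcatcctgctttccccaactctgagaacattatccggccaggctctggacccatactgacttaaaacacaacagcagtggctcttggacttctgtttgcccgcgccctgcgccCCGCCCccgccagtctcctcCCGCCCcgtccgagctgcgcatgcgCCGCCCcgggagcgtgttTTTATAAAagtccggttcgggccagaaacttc
The Cxcl12 window held 5 GC boxes and the Cxcr4 window 3, where 32.7% of all 32851 windows of this length held at least 1. In Cxcl12, 2 of the GC boxes overlap each other. The Cxcr4 window also held the TATA letters on both strands in overlap, from 30 bases before the start on the gene's strand (12.4% of all windows hold this motif). Neither window held the NF-kappaB or the interferon letters. Of the 55 members, 41 had a promoter in the table. A match is a description of the letters, not of binding.
Beyond the chemokine families, 28 of 33 listed genes of the CXCR4 axis were measured, including trefoil factors, G protein subunits, arrestins, receptor kinases and downstream kinases. Of these, 11 lay above both controls, where 12.0% of all genes did, and 1, Tff2, below, where 11.7% did. Their median log2 fold change was 0.14. At an unadjusted p 5 were higher (5.29% of all genes were) and 1 lower (5.04%), and 0 passed after adjustment. Gnai2, an inhibitory G protein subunit that chemokine receptors use, was at 1217 and 1227 in control pancreata against 1415, 1479 and 1521 in Pdx1cKO (log2 difference 0.27, limma adjusted p = 0.225). Dock2, a leukocyte protein that activates Rac downstream of chemokine receptors, gave 84.3 and 80.2 against 102, 104 and 112. Grk6, a kinase that desensitises such receptors, gave 123 and 130 against 146, 145 and 142. These differences were small but none of the groups overlapped.
The ligands with the largest positive fold changes were Ccl19 and Cxcl13, both known for organising lymphoid tissue. Ccl19, which draws T cells and dendritic cells through Ccr7, had intensities of 57.5 and 46.2 in control pancreata against 166, 153 and 206 in Pdx1cKO. The lowest Pdx1cKO value was 1.41 log2 units above the higher control. The fold change was 3.37 (log2 1.75, 95% interval 1.22 to 2.28, limma adjusted p = 0.183), the largest among the 55 members, and it was 1.91 without control 1 (limma adjusted p = 0.0472) and 1.59 without control 2 (limma adjusted p = 0.0674). Its value is the mean of 5 probe sets that had log2 fold changes of 1.55 to 1.84. The values of probe sets 10504159 and 10512322 were identical on every array, so these are not 5 separate measurements, and probes of this gene may read near-identical copies.
Cxcl13, the B cell attractant of follicles, gave 168 and 83.3 in control pancreata against 254, 206 and 320 in Pdx1cKO. The groups did not overlap, but the controls lay far apart. The fold change of 2.16 (log2 1.11) had a 95% interval of -0.04 to 2.27 (limma adjusted p = 0.509), and the log2 difference was 1.62 without control 1 and 0.61 without control 2.
The receptors of these ligands overlapped between the groups. Whether ligand and receptor differences were unequal was not tested. Ccr7, which reads Ccl19, was at 60.4 and 53.3 in control pancreata against 60.4, 65.4 and 60.4 in Pdx1cKO (log2 difference 0.13, 95% interval -0.09 to 0.35), and its difference was 0.22 without control 1 and 0.04 without control 2. Cxcr5, which reads Cxcl13 on B cells, was at 26.9 and 26.3 against 26.9, 26.2 and 31.7, with only Pdx1cKO mouse 3 above the controls (log2 difference 0.08, 95% interval -0.21 to 0.37). Ackr4, which scavenges Ccl19, was at 76.3 and 60.0 against 76.3, 76.3 and 79.5 (log2 difference 0.19, 95% interval -0.15 to 0.54). Control 1 equalled Pdx1cKO mice 1 and 2, so this Ackr4 difference came from control 2: it was 0.02 without that array (limma adjusted p = 0.839) and 0.37 without control 1 (limma adjusted p = 0.0324).
Lymphoid genes outside the families were read beside them. Ltb, the lymphotoxin subunit that induces these ligands in lymphoid stroma, was at 50.4 and 52.6 in control pancreata against 71.5, 87.6 and 89.5 in Pdx1cKO (log2 difference 0.68, limma adjusted p = 0.264). Its receptor Ltbr was lower by a small margin, at 126 and 129 against 117, 119 and 118. The B cell receptor component Cd79b was at 64.5 and 62.0 against 178, 208 and 121, and the other measured B cell markers, Cd79a and Ms4a1, also lay above both controls. T cell markers were mixed: Cd3g, at 34.4 and 30.6 against 36.2, 40.3 and 47.1, and Cd4, at 63.8 and 51.6 against 67.0, 66.5 and 75.7, lay above both controls, while Cd3d, Cd3e, Cd8a and Cd2 overlapped. Of 9 genes of lymphoid organ stroma, a list added after the data were seen, 4 lay above both controls and 0 below, with sums of 1142 to 1176 in control pancreata against 1298 to 1425 in Pdx1cKO. Among them the adhesion molecule Vcam1 was at 92.7 and 96.2 against 221, 262 and 186, and Bst1 at 58.4 and 61.1 against 106, 91.3 and 95.7. Madcam1, the addressin of mucosal venules, overlapped at 57.4 and 64.2 against 70.4, 64.2 and 75.0. The part of lymphoid or splenic tissue in the higher Ccl19 and Cxcl13 was not tested.
The promoters of these ligands are printed in the same way, as the pair with the largest fold changes, for comparison with those of Cxcl12 and Cxcr4.
Ccl19 (chr4:42756366-42756615, minus strand): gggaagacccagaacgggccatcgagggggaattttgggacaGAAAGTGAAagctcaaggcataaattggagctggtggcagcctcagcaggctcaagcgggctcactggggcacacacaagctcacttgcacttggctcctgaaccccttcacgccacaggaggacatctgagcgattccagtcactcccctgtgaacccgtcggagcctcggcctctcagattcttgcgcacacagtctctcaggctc
Cxcl13 (chr5:95956689-95956938, plus strand): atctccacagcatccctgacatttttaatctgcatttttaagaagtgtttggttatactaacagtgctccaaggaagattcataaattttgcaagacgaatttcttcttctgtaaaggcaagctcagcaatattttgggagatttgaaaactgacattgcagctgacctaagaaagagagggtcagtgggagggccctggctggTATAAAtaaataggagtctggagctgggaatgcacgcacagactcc
The Ccl19 window held the interferon letters once, 208 bases before the start, where 7.13% of all windows hold them. The interferon motif was shortened by 1 letter after a first search, so this match is a description and no test. The Cxcl13 window held a TATA box 46 bases before the start. Neither held a GC box or the NF-kappaB letters.

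**Figure D3:**
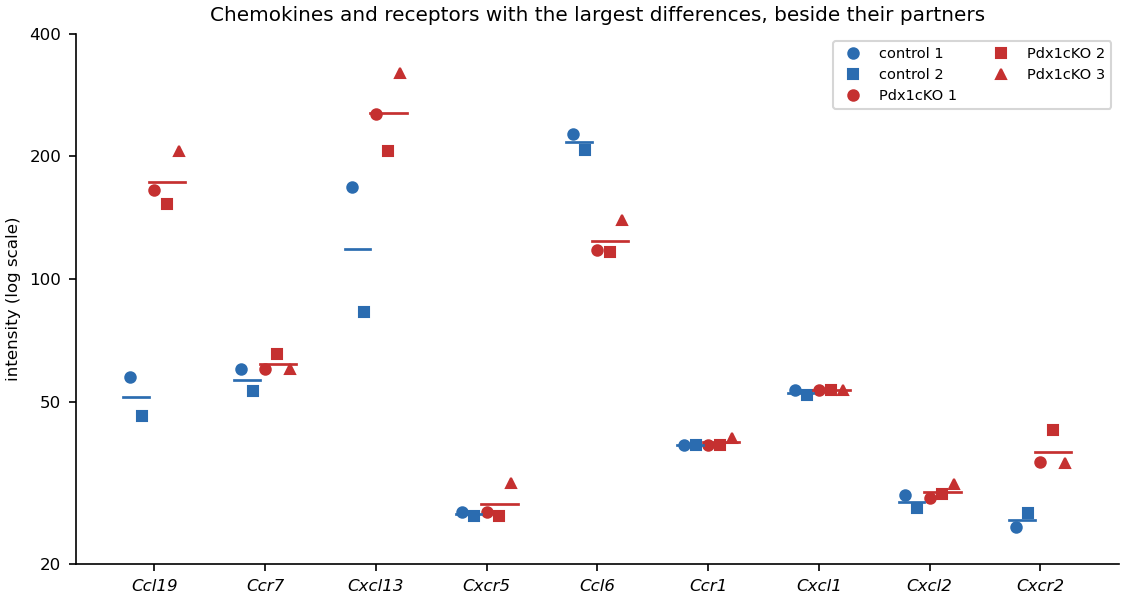
Intensity on a log scale of ligands with the largest differences and of receptors that read them, with the neutrophil ligands Cxcl1 and Cxcl2 and their receptor Cxcr2, on each of the 5 arrays (controls in blue and Pdx1cKO in red, with a symbol for each replicate and lines at geometric means). Ccl19, Cxcl13 and Cxcr2 lie higher and Ccl6 lower in Pdx1cKO, while Ccr7, Cxcr5, Ccr1, Cxcl1 and Cxcl2 overlap.

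In the neutrophil branch the receptor Cxcr2 separated the groups, while its ligands Cxcl1, Cxcl2, Cxcl3 and Cxcl5 overlapped. Cxcr2, the main receptor that brings neutrophils to inflamed tissue, was at 24.6 and 26.7 in control pancreata against 35.6, 42.6 and 35.3 in Pdx1cKO. The groups were separated by 0.40 log2 units. The fold change was 1.47 (log2 0.56, 95% interval 0.24 to 0.87, limma adjusted p = 0.285). Cxcr1, its close relative, was slightly lower, at 45.8 and 47.0 against 43.9, 44.9 and 44.9 (log2 difference -0.06, limma adjusted p = 0.470).
Of the ligands that act on Cxcr2, Cxcl1, Cxcl2, Cxcl3 and Cxcl5 overlapped between the groups. Ppbp, named outside the families, did not overlap and is given below. Cxcl1 was at 53.5 and 51.9 in control pancreata against 53.5 in each Pdx1cKO mouse, with a 95% interval of -0.03 to 0.07 for its log2 difference. Cxcl2 was at 29.5 and 27.5 against 29.0, 29.8 and 31.4, and Cxcl3 ran from 24.8 to 25.6. Cxcl5 was at 25.9 on all 5 arrays. In mean level Cxcl2, Cxcl3 and Cxcl5 lay at percentiles 16.8, 10.9 and 11.8 of all genes, and Cxcr2 at 20.3. At levels this low, overlap cannot show that a ligand was unchanged. Cxcl1, Cxcl2, Cxcl3 and Cxcl5 lie close to Cxcl15 in the RefSeq gene order, and these 5 members had log2 differences of -0.01 to 0.08. Clusters here and below were formed from the members only, so genes with other names, such as Ppbp and Pf4, were not placed in them.
Granulocyte markers were also higher. All 12 of the listed markers were measured and lay above both controls, with sums of 556.3 to 561.5 in control pancreata against 1582 to 4027 in Pdx1cKO. Ngp, a protein of granulocyte granules, was at 66.7 and 69.0 against 732, 1003 and 306, and Elane at 65.1 and 76.0 against 268, 467 and 139. The Pdx1cKO mouse with the highest Cxcr2, mouse 2, also had the highest granulocyte sum. Mice 1 and 3 were nearly equal in Cxcr2, at 35.6 and 35.3, but had granulocyte sums of 2935 and 1582. The part of these cells in the Cxcr2 difference was not tested.
The promoters of Cxcl1 and Cxcl2 are printed because they hold the NF-kappaB letters that induced chemokines are known for, while their transcripts lay at nearly the same intensity in both groups.
Cxcl1 (chr5:90890995-90891244, plus strand): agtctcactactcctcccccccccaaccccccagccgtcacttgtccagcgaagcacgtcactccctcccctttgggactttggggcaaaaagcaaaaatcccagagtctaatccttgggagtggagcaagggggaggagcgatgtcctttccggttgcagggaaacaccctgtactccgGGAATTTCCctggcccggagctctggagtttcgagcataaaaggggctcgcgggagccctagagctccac
Cxcl2 (chr5:90903649-90903898, plus strand): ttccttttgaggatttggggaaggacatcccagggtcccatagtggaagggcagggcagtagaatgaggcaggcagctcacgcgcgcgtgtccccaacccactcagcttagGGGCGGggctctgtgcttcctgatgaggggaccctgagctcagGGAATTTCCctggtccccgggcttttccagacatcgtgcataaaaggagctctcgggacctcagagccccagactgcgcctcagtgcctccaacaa
The letters GGAATTTCC stood 70 bases before the start of Cxcl1 and 96 before that of Cxcl2. Over all windows 0.286% held them, and among the 41 members with a window 5 did: Cxcl1, Cxcl2, Cxcl3, Cxcl10 and Ccr3. This motif was shortened by 1 letter after a first search, so the counts are a description and no test of enrichment. Genes of inflammatory induction were read from a separate list. Of 15 measured inflammatory inducers 2 lay above both controls and 1 below, with a median log2 fold change of 0. Tnf was at 45.7 to 51.1 and Il1b at 37.8 to 39.0 over the 5 arrays. Tnfaip3, an inhibitor that NF-kappaB induces, was at 54.7 and 48.0 against 58.1, 56.7 and 57.9. Irf1, a transcription factor that interferon-gamma induces, was at 64.5 and 80.7 against 64.8, 61.6 and 64.8, so that control 2 alone was high.
Among chemokines of monocytes and macrophages the directions were mixed. Ccl6, a ligand that myeloid cells produce in rodents, had the most negative fold change among the 55 members, at 227 and 207 in control pancreata against 118, 117 and 140 in Pdx1cKO. The groups were separated by 0.57 log2 units. It was 1.74-fold lower in Pdx1cKO (log2 difference -0.80, 95% interval -1.11 to -0.49, limma adjusted p = 0.223), and the log2 difference ran from -0.89 to -0.74 over all 14 alternatives. Its neighbour in the same gene cluster, Ccl9, overlapped at 251 and 211 against 251, 326 and 202 (log2 difference 0.15, 95% interval -0.56 to 0.86), and its difference was 0.27 without control 1 and 0.02 without control 2. That cluster also holds Ccl5, Ccl3 and Ccl4, and its 5 members had log2 differences of -0.80 to 0.44. Ccr1, which reads several of these ligands, was at 39.3 on 4 arrays and 40.8 in Pdx1cKO mouse 3.
Ccl5, a ligand made by activated T cells and other leukocytes, was at 71.5 and 64.1 in control pancreata against 89.9, 96.1 and 88.9 in Pdx1cKO. All Pdx1cKO values were higher, with a fold change of 1.35 (log2 0.44, 95% interval 0.24 to 0.63, limma adjusted p = 0.236), and the log2 difference was 0.52 without control 1 (limma adjusted p = 0.0486) and 0.36 without control 2 (limma adjusted p = 0.0929). Ccl3 and Ccl4 differed by 0.08 and 0.03.
The monocyte attractant Ccl2 was at 98.7 and 100.3 in control pancreata against 98.7, 96.6 and 108 in Pdx1cKO, and its receptor Ccr2 at 32.5 to 32.7 on all arrays. Ccl7, a further ligand of Ccr2, was at 57.2 and 70.0 against 67.2, 81.4 and 71.5. Ccl2, Ccl7, Ccl11, Ccl12, Ccl8 and Ccl1 form 1 cluster, in which log2 differences ran from -0.31 to 0.21.
Cx3cr1, the fractalkine receptor of resident macrophages and monocytes, was at 84.9 and 95.8 in control pancreata against 111, 116 and 106 in Pdx1cKO (log2 difference 0.30, 95% interval 0.09 to 0.51, limma adjusted p = 0.343). Its ligand Cx3cl1 was at 73.2 in control 1, 102 in control 2 and 72.1 to 76.6 in Pdx1cKO, so that control 2 alone was high. The log2 difference of Cx3cl1 was -0.47 without control 1 and 0.01 without control 2. Of 10 measured macrophage markers, 1 lay above both controls and 0 below, with sums of 2765 to 3913 in control pancreata against 3284 to 3628 in Pdx1cKO. Among them Csf1r, the receptor of a colony-stimulating factor, was at 444 and 259 against 350, 359 and 393.
Of the ligands that interferon-gamma induces and Cxcr3 reads, only Cxcl9 separated the groups by more than a small margin. It was at 33.5 and 37.2 in control pancreata against 47.3, 42.3 and 42.1 in Pdx1cKO (log2 difference 0.31, 95% interval 0.08 to 0.55, limma adjusted p = 0.361). Cxcl10 was at 49.9 and 45.3 against 50.1, 52.0 and 49.9. Cxcl11, a transcribed pseudogene in the RefSeq annotation of the C57BL/6J reference, was at 34.2 and 31.7 in control pancreata against 31.7 in each Pdx1cKO mouse. Cxcr3 itself was at 46.9 and 44.0 against 46.7, 47.4 and 46.7.
Ccl22, a ligand of Ccr4, was at 31.9 and 26.2 in control pancreata against 33.9, 33.9 and 37.4 in Pdx1cKO (log2 difference 0.28, 95% interval -0.04 to 0.60), and its difference was 0.14 without control 2 and 0.42 without control 1. Ccl17, which shares that receptor, overlapped at 46.1 and 43.7 against 44.0, 46.1 and 49.9, and Ccr4 had 27.0 on all 5 arrays. Ccl11, the eosinophil attractant eotaxin, was at 114 and 84.0 in control pancreata against 79.5, 79.5 and 77.5 in Pdx1cKO, so that control 1 alone stood clearly above the rest. Its log2 difference was -0.31 (95% interval -0.75 to 0.12, limma adjusted p = 0.515), -0.54 without control 2 (limma adjusted p = 0.00832) and -0.09 without control 1. The eosinophil receptor Ccr3 overlapped, at 28.5 and 26.6 against 30.4, 30.7 and 28.5.
Ccr9, which homes thymocytes and gut lymphocytes, was at 26.7 and 27.7 in control pancreata against 29.9, 37.3 and 43.2 in Pdx1cKO (log2 difference 0.42, 95% interval -0.10 to 0.94, limma adjusted p = 0.515). Its ligand Ccl25 was read by 2 probe sets that disagreed. Probe set 10569962 was at 36.2 in control 1, 57.2 in control 2 and 34.9 to 37.0 in the Pdx1cKO mice, while probe set 10569958 lay at 49.7 to 52.9 throughout. The log2 difference of Ccl25 was -0.33 without control 1 and 0.04 without control 2.
Some members stood apart in control 2 alone. In that array, Ccl20, Ccl25 and Cx3cl1 were over 0.2 log2 units above every other array, and Ackr3, Ackr4, Ccl19, Ccl22, Ccl24, Ccr6, Cxcl13 and Cxcr4 were over 0.2 below every other. Over all genes, 6.38% stood above and 8.40% below by that margin in control 2. Ccl20, which epithelium makes and Ccr6 reads, was at 44.5 in control 2 and 35.3 to 37.6 on the other arrays. Its log2 difference was -0.27 without control 1 and -0.03 without control 2. Ccl24 was at 33.3 in control 2 and 48.3 to 53.0 on the others, with a log2 difference of 0.60 without control 1 and -0.07 without control 2. Control 2 was also the array with stomach transcripts, with 3014 for the gastric gene Gkn2 against 25.1 to 26.4 on the others, and the part of stomach tissue in these values was not tested.
Of the remaining receptors and ligands, Ccl1 and Ccl26 lay below both controls by margins of 0.0243 and 0.0021 log2 units, and the others overlapped. Cxcr6 was at 36.7 in Pdx1cKO mouse 3 and 28.9 to 29.2 on the other arrays. Ccr6, Ccr8 and Ccr10 had log2 differences of 0.16, 0.08 and 0.07, and that of Ccr6 was 0.04 without control 2. Ackr1, an atypical receptor of venules and erythroid cells that binds many inflammatory chemokines, was at 65.1 and 56.4 in control pancreata against 71.1, 84.2 and 60.8 in Pdx1cKO (log2 difference 0.24, 95% interval -0.26 to 0.74), and its difference was 0.34 without control 1 and 0.13 without control 2. The 3 measured erythroid markers lay above both controls, with sums of 311.5 to 314.4 and 726.6 to 2218, and were highest in Pdx1cKO mouse 2, as Ackr1 was. The part of erythroid cells in Ackr1 was not tested. Xcl1 and its receptor Xcr1 differed by -0.02 and -0.00, and the epithelial chemokines Cxcl14, Cxcl15, Cxcl16, Cxcl17 and Ccl28 by -0.01, -0.01, -0.09, 0.03 and 0.01. Ccl8, Ccl12, Ccl1 and Ccl26 differed by -0.12, -0.04, -0.08 and -0.10.

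**Figure D4:**
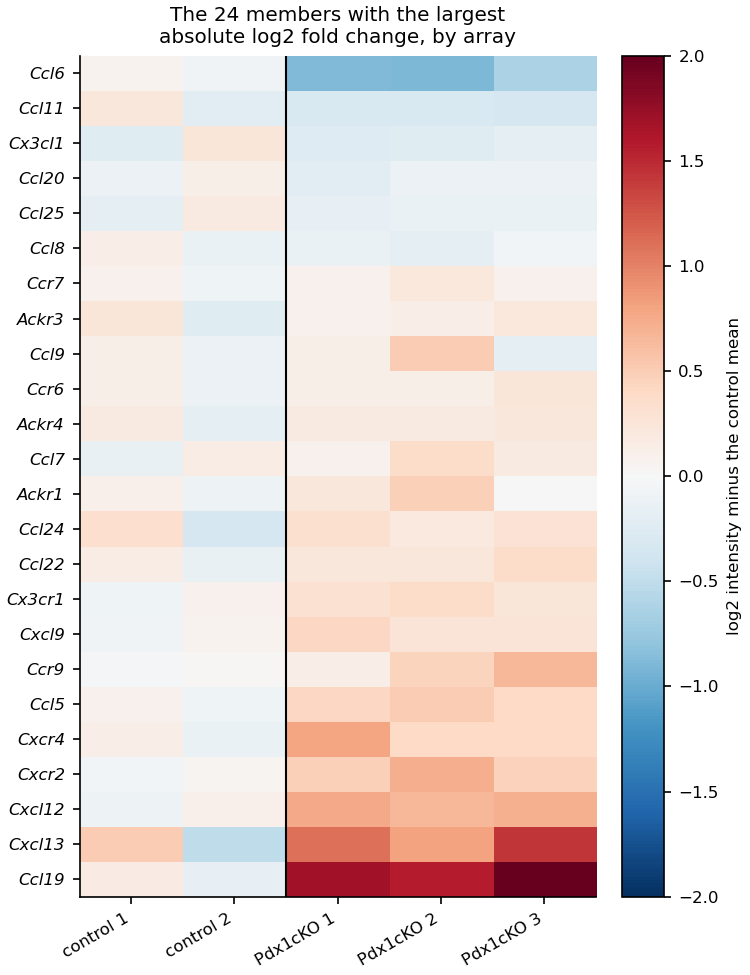
Log2 intensity minus the control mean of the 24 members with the largest absolute log2 fold change, on each of the 5 arrays (colour scale in log2 units; the line divides control from Pdx1cKO). Ccl19 and Cxcl13 are the darkest red in all 3 Pdx1cKO mice, Ccl6 is the darkest blue, and the controls differ visibly for Cxcl13 and Ccl24.

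Relatives of the families that carry other names were read from a separate list, of which 6 of 12 were measured. The platelet chemokine Ppbp was at 62.0 and 65.4 in control pancreata against 271, 433 and 131 in Pdx1cKO (log2 difference 1.96, 95% interval 0.28 to 3.65, limma adjusted p = 0.411). Pf4, the other platelet chemokine, was at 277 and 221 against 300, 322 and 289. Gpr182, an endothelial scavenger of chemokines, was at 80.9 and 46.4 against 142, 183 and 102, and Pitpnm3 was at 58.7 and 58.1 against 52.2, 50.4 and 53.5. Of 6 platelet markers, a list that includes Ppbp and Pf4, 3 lay above both controls and 0 below, with sums of 720.8 to 751.9 and 899.8 to 1293.
Across the Pdx1cKO mice the members did not share 1 order. Mouse 1 was highest for Cxcr4, mouse 2 for Cxcr2 and Ccl9, and mouse 3 for Ccl19, Cxcl13, Ccr9, Cxcr5 and Cxcr6, each by over 0.2 log2 units. Granulocyte, lymphocyte, platelet, erythroid, liver, stomach and islet sums were lowest of the 3 in mouse 3, where Ccl19 and Cxcl13 were highest. Mesenchymal, endothelial, lymphoid organ stroma and acinar sums were highest in that mouse. Sums weigh bright genes most. The lymphocyte median of log2 intensity minus the control mean was instead highest in mouse 3, at 0.19, 0.23 and 0.36 in mice 1, 2 and 3. Cd79a and Cd79b were lowest of the 3 in mouse 3, while Ptprc, Cd3e, Cd3g and Cd4 were highest there. The platelet median was lowest in mouse 1. Granulocyte and erythroid sums were highest in mouse 2, where Ccl19, Cxcl13 and the mesenchymal sum were lowest of the 3. The part of these tissues in the order of Ccl19 and Cxcl13 was not tested. Sex differed too: Xist was at 622 and 349 in mice 1 and 2 and at 33.5 to 53.4 in both controls and mouse 3. Cxcl12 lay within 133 to 142 in all 3.

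**Figure D5:**
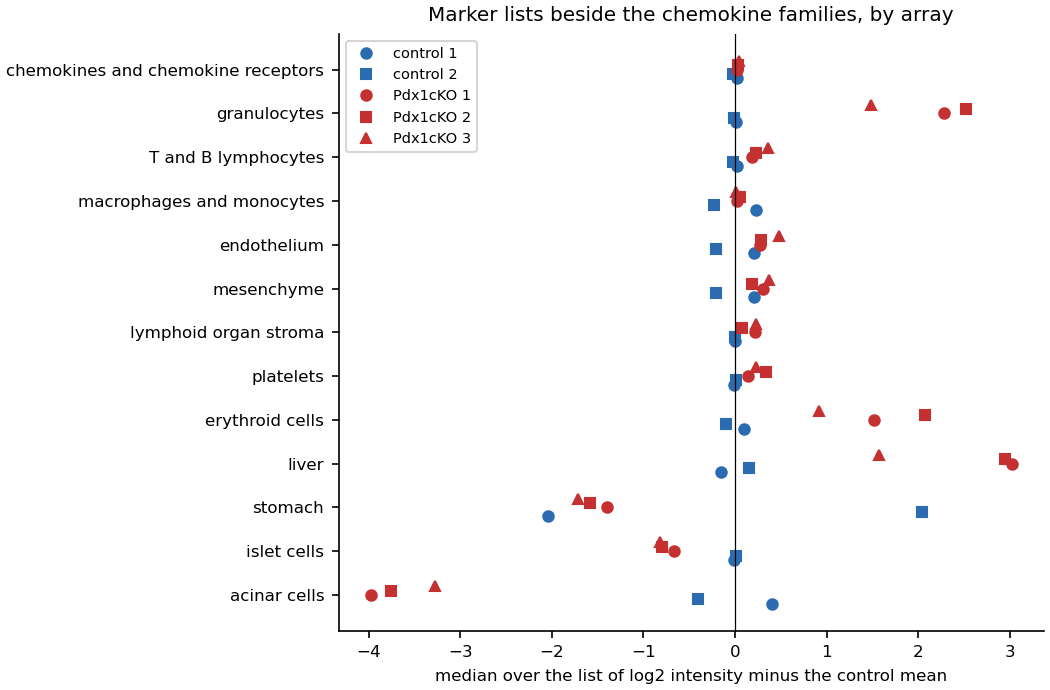
Median over each marker list of log2 intensity minus the control mean, on each of the 5 arrays (controls in blue and Pdx1cKO in red, with a symbol for each replicate), with the 55 chemokine and receptor genes on top. The chemokine families stay within 0.05 of 0 on every array, granulocyte, erythroid and liver lists lie to the right in Pdx1cKO, and control 2 stands apart for stomach.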

How the data were processed

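Whole-pancreas RNA from 2 control and 3 Pdx1cKO mice was read on Mouse Gene 1.0 ST arrays. The deposited values are linear intensities that the authors exported from GeneSpring GX 12.1. How probes were background-corrected, normalized and summarised is stated in no source used here. Array medians were 60.99 to 61.86. Log2 was taken with no pseudocount, 21789 probe sets with 1 symbol were averaged into 19938 genes, and groups were compared with limma 3.58.1 (R 4.3.3; lmFit, eBayes, Benjamini-Hochberg over all genes, threshold 0.05). All 55 members matched RefSeq by Entrez gene, with 0 symbols changed. On simulated data the limma script was tested first. Nothing says that mice came from separate litters, so p-values measure the spread between these samples.

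The members and gene lists were chosen with earlier results of these data known. Values in every sample were given for Cxcr4, Cxcl12, Ackr3 and Tff2, the 8 ligands and 6 receptors with the largest log2 fold changes, the 6 brightest members and the 4 smallest p-values of each pathway list. Other members were named by role, and markers beside results. Alternatives were 2 scalings, 2 filters on dim genes, single probe sets, trend and robust eBayes, array weights, the methods' t-test (Student), leaving out each sample, and a block on the replicate number. Promoters came from RefSeq (GRCm38.p6), and the NF-kappaB and interferon motifs were shortened by 1 letter after a first search. No build is named with the intensities. Figures used matplotlib 3.10.9 in Python 3.11.15.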

Additional observations from a re-analysis of the deposited data

How the results depend on the processing

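The log2 differences of Cxcl12 and Cxcr4 were positive under all 14 alternatives, at 0.61 to 0.81 and 0.40 to 0.66, and Cxcl12 passed only without a control, at 0.61 and 0.81 (limma adjusted p = 0.0246 and 0.0158; over all alternatives 0.0158 to 0.925). Ackr3 ran from -0.10 without control 2 to 0.39 without control 1. Members passing after adjustment numbered 0 under the other alternatives and 0 to 7 higher and 0 to 3 lower over the left-out samples. Without control 1 there were 7 higher and 3 lower, and without control 2 there were 1 and 3, where 8.04% and 8.94% of all genes passed higher and lower without control 1 and 4.99% and 10.4% without control 2, in fits where the remaining control has no spread of its own. Of these, Ccl4, Cxcl1, Ccl26 and Cxcl11 have tied Pdx1cKO values. At an unadjusted p, higher members numbered 3 with array weights, where 1.21% of all genes were higher. When a sample was dropped they numbered between 4 (without Pdx1cKO 2) and 15 (without control 1), against 4.08% and 14.8% of all genes. Over single probe sets, 11 of the 60 member probe sets were higher, against 5.27% of all probe sets. This last count is of probe sets and not of genes, and Ccl19 alone is read by 5. Lower members at an unadjusted p numbered 1 with array weights, where 1.96% of all genes were lower. They also numbered 1 with median scaling (5.38% of all genes), quantile normalization (5.13%) and trend and robust eBayes (5.02%). The count was again 1 with the methods' t-test (4.05%) and the replicate block (3.03%). Among genes above the median level it was 1 of 13 members, against 5.03% of the genes at that level. Above the lower quartile 1 member was lower, against 4.98% of the genes at that level. Lower members numbered 1 to 8 when a sample was dropped (8 without control 1, where 15.1% of all genes were lower). Members with every Pdx1cKO value above both controls numbered 22 with quantile normalization, where 19.3% of all genes did so. Among genes above the median level they numbered 6 of 13, or 46.2%, against 18.3% of all genes at that level. When a sample was dropped they numbered 11 to 27 (27 without control 1, where 31.1% of all genes did so). Members below both controls numbered 3 among genes above the lower quartile, against 10.8% of the genes at that level. Above the median they numbered 2 of 13, against 10.3%. When a sample was dropped they numbered 6 to 13 (13 without control 1, against 5588 of all 19938 genes). The filters test fewer genes, since 42 of 55 members lie at or below the median gene. The other causes were not tested. With the replicate number as a block the log2 difference was 0.71 for Cxcl12 and 0.60 for Cxcr4. In that fit 6 members were higher at an unadjusted p, where 4.31% of all genes were. Deviations of same-numbered samples correlated at 0.0325 and -0.00297. With 2 controls the control deviations mirror each other, so these values cannot show whether same-numbered samples share more than a number. The block changed no call after adjustment. Dim intensities and 5 arrays limit what could be seen.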
